A study of Mus musculus with 2 samples.

Results

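The transcripts of 9 genes of the complement system were followed through the cells of mouse tumours: the 3 chains of C1q (C1qa, C1qb, C1qc), the components C3 and C6, factor B (Cfb), properdin (Cfp), and the receptors for the C3a and C5a fragments (C3ar1, C5ar1). They were taken by symbol, and all 9 were found among the 32285 genes of both count matrices. Mice of the BALB/c strain, aged 5 weeks, were fed either a normal diet (the Control library) or a diet of equal calories from which arginine had been removed (the library titled Arg). Both groups carried subcutaneous tumours of CT26, a mouse colorectal carcinoma line, which were implanted after 1 week of the diets and taken on day 20. Cells positive for the leukocyte marker CD45 were pulled out with magnetic beads and sequenced by the droplet method of 10x Genomics (Chromium 3′ v3). The Arg library was read as the arginine-free arm from the series' design text. How many tumours went into a library was not stated in the labels used. Each diet has 1 library, so no difference below has a replicate check, no test was run, and each comparison is between these libraries rather than between the diets. Because the beads select leukocytes, tumour cells and fibroblasts were seen only as carried-over minorities.

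Complement is a cascade of blood and tissue proteins that marks targets for uptake, recruits leukocytes and can pierce membranes. C1q, a hexamer built from equal parts of its A, B and C chains, starts the classical pathway on antibody complexes and also binds dying cells, and tissue macrophages are a main source of it. C3 is the central component on which all pathways meet, factor B forms the alternative pathway's C3-cleaving enzyme, and properdin stabilizes that enzyme. C6 is a part of the terminal membrane attack complex. The fragments C3a and C5a act on the G protein-coupled receptors C3ar1 and C5ar1 of myeloid cells.

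On GRCm38 the 3 C1q genes lie side by side on the minus strand of chromosome 4 within 18675 bases, C1qb at 136880129-136886187, C1qc at 136889804-136893065 and C1qa at 136895917-136898803. C3 (57203970-57228136) and Cfb (34856374-34862518) both lie on the minus strand of chromosome 17. C6 lies on the plus strand of chromosome 15 (4727175-4814967), and C3ar1 (chromosome 6, 122847138-122856161), C5ar1 (chromosome 7, 16246743-16259540) and Cfp (chromosome X, 20925454-20931555) on minus strands. All 9 are annotated as protein-coding. The read-through gene Gm20547 shares 2246 exonic bases with Cfb on the same strand. It is not among the features of the matrices.

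The bases before the transcription start are shown for C1qb and C1qc, neighbours that were both lower in Arg macrophages, and for C3, which of the 9 genes differed most there. They come from RefSeq's promoter table for GRCm38.p6, which held 7 of the 9 genes, and were cut where GENCODE M21 places the first exon base. These motifs were searched on both strands: the MAF half-site TGCTGA, the PU.1 core GAGGAAG, the gamma-activated site TTCNNNGAA and the C/EBP site TTGCNNAA. Capitals mark the matches, which did not overlap one another. C1qb is chr4:136886201-136886450, C1qc is chr4:136893066-136893164 and C3 is chr17:57228137-57228386, each read 5′ to 3′ on the minus strand.
C1qb: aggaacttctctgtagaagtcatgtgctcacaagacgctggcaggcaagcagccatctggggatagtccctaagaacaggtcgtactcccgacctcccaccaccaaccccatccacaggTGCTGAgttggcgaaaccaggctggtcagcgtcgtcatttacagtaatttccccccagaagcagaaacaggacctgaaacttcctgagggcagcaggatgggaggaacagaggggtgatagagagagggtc
C1qc: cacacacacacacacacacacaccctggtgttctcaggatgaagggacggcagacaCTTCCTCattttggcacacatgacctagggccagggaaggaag
C3: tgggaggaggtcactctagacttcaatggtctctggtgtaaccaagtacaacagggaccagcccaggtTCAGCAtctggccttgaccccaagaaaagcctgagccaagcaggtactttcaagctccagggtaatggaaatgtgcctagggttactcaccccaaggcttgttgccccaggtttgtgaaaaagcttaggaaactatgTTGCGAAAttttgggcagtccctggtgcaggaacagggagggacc
C1qb held 1 MAF half-site, 131 to 126 bases before the RefSeq start. In C1qc the 99 bases shown held 1 PU.1 core on the opposite strand, 194 to 188 bases before the start. C3 held a MAF half-site on the opposite strand (182 to 177 bases before the start) and a C/EBP site (45 to 38 bases before it). Among 32536 RefSeq windows of 250 bases before a start, 16.1% held the MAF half-site, 10.7% the PU.1 core, 7.04% the gamma-activated site and 9.57% the C/EBP site. In windows cut to 99 bases like that of C1qc, 3.94% held the PU.1 core. A match describes these letters and is not evidence of binding.

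The matrices held 155927693 UMIs (unique molecular identifiers, each counting 1 captured transcript) in 14540 Arg barcodes and 191505551 in 14343 Control barcodes, of which 44 barcode sequences were shared. Filtering left 12991 Arg cells (median 8294 UMIs) and 12800 Control cells (median 10021 UMIs). Cells were clustered on variable genes from which all complement genes had been removed, and clusters were named from marker genes, so that each name means "like". The macrophage class held 2395 Arg and 4326 Control cells, and the monocyte class 3689 and 1642. Adgre1, the macrophage marker F4/80, was found in 75.2% and 83.8% of macrophages, and the monocyte marker Ccr2 in 85.3% and 86.6% of monocytes. No cluster could be named tumour cells. The nearest were 2 clusters (460 and 1431 cells) with Rhox5 in 95.4% and 97.6% of cells and Lgals7 in 91.5% and 95.6%, in which Epcam was found in 0.217% and 0.140%, Krt8 in 0.217% and 1.75% and the leukocyte gene Ptprc in 37.8% and 31.1% of cells. Other keratin genes were more frequent, with Krt20 in 49.57% of the Arg and 50.03% of the Control cells of these clusters. Krt18 was found in 13.04% and 24.6% of them. Col1a1 was found in 51.96% and 64.5%, and Dcn in 41.09% and 41.65%. The cells of these clusters are called Rhox5/Lgals7 cells. Levels are given as CPM, the UMIs of a gene per 1000000 UMIs of the class, with exact Poisson 95% intervals where printed. These cover counting error only and treat UMIs of 1 cell as independent.

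**Figure D1:**
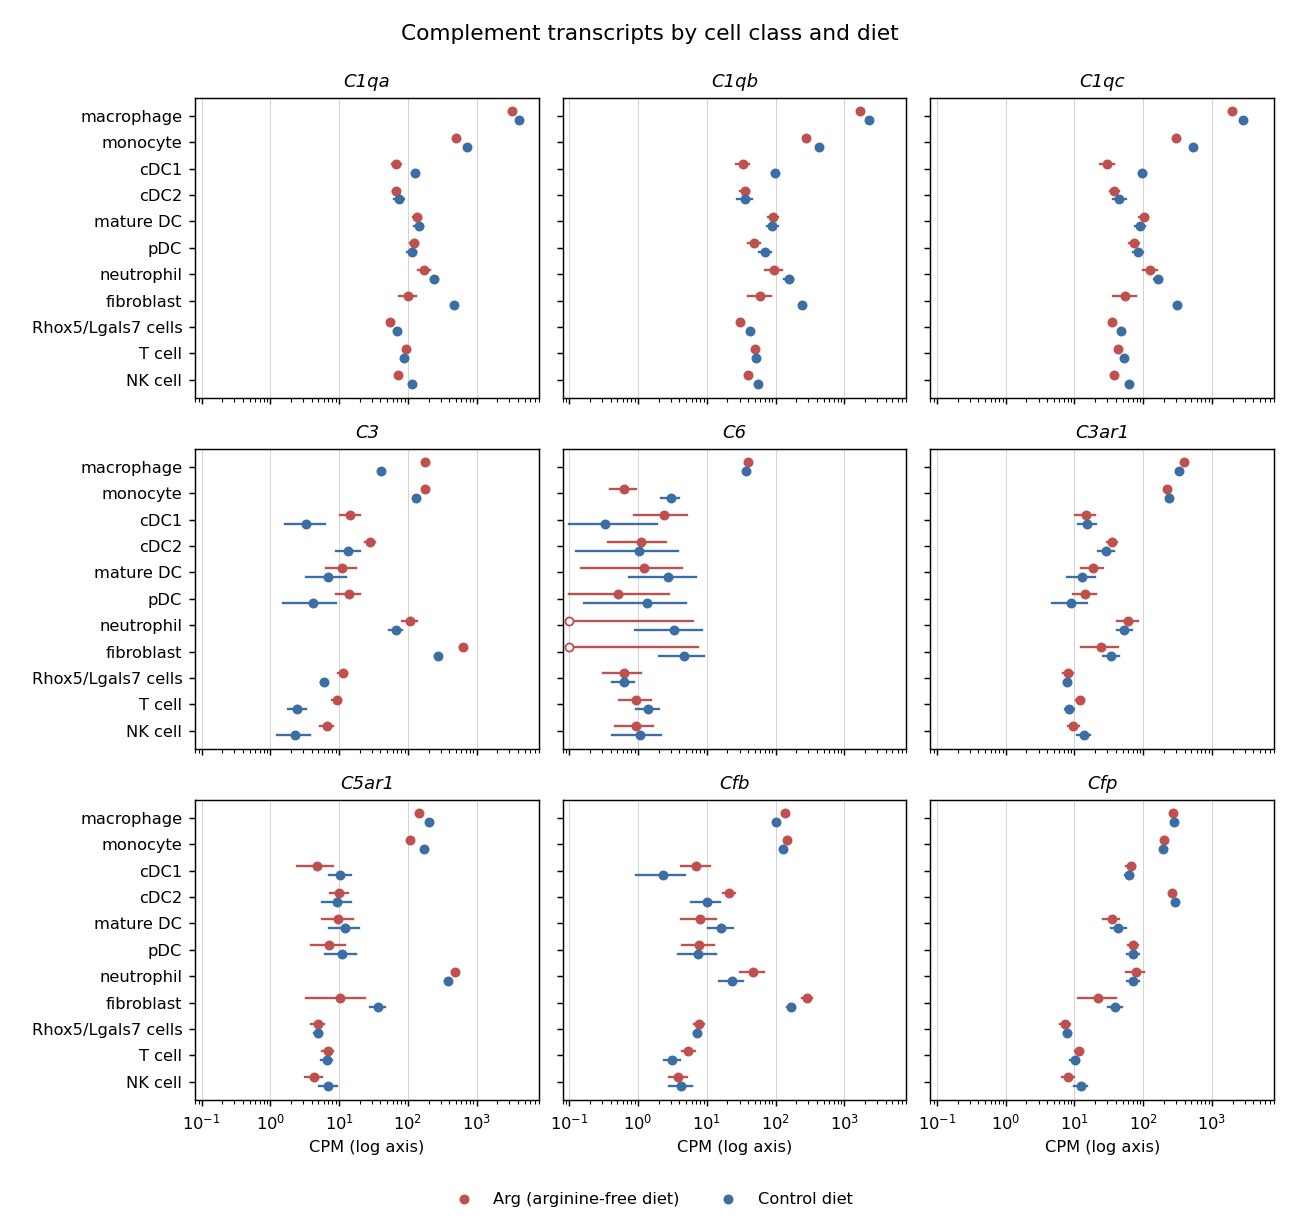
CPM of each complement gene (log axis) in 11 cell classes, Arg in red and Control in blue, with exact Poisson 95% intervals as bars and open circles for a count of 0. C1q stood above the T and NK cell level mainly in macrophages and monocytes, C6 was by far highest in macrophages, and C5ar1 was high in macrophages, monocytes and neutrophils.

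C1q was the signature of the macrophage class. C1qa stood at 3232 CPM in Arg and 4179 CPM in Control macrophages, and at 502 and 737 CPM in monocytes. The macrophage class supplied 76.3% of all C1qa UMIs of the Arg library and 91.6% of those of the Control library. T cells, which are not known to make C1q, held 93.0 and 86.7 CPM of C1qa, and NK cells 71.6 and 113 CPM. Such counts can come from free RNA, whose share of a cell's UMIs changes with the cell's depth. Neutrophils, with medians of 2203 and 2158 UMIs, held 170 and 241 CPM. Type 2 conventional dendritic cells (cDC2) held 67.5 and 73.8 CPM. Summed over the 3 chains, they had 1.86 and 1.89 C1q UMIs per cell, against 1.65 and 1.75 per T cell. C1qa in mature dendritic cells (137 and 143 CPM) and plasmacytoid dendritic cells (122 and 113 CPM) was low beside that of macrophages. Per cell, mature dendritic cells held 5.12 and 4.91 C1q UMIs and plasmacytoid dendritic cells 2.55 and 2.43, more than the shallower T cells. With cells thinned to equal depth, 9.80% and 10.5% of mature dendritic cells held a C1qa UMI. Plasmacytoid dendritic cells had 14.3% and 15.9%, and T cells 15.3% and 18.2%. In Control, C1qb was instead higher in these dendritic classes, at 12.6% and 12.1% against 11.3% in T cells. So was C1qc in mature dendritic cells, at 11.6% against 11.2%. C1qa differed between mature dendritic subclusters, with 211 and 231 CPM in 16.1 and 32.5 and 54.5 CPM in 16.3. In macrophages the chains had similar proportions in both libraries. Of the C1q UMIs of macrophages, C1qa made up 46.8% in Arg and 44.8% in Control, C1qb 24.4% and 24.6%, and C1qc 28.8% and 30.6%. In T cells the shares of C1qa were 49.7% and 45.2%, and in type 1 conventional dendritic cells 51.8% and 39.7%. In monocytes those of C1qc were 27.8% and 31.0%.

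All 3 chains were lower in Arg than in Control macrophages. C1qb stood at 1684 against 2294 CPM and C1qc at 1985 against 2854 CPM, and the ratios of Arg to Control were 0.774 for C1qa, 0.734 for C1qb and 0.696 for C1qc. None of the 3 passed a 1.5-fold difference, the size used here to set genes apart (on CPM + 5, with at least 10 CPM in the higher library and 20 UMIs over both). Of the 9 complement genes, all measured in this class, 1 was past 1.5-fold, C3, which was higher, while 7.34% of the 7997 genes measured were past it in either direction. The median log2 ratio was -0.04 over the 9 genes and 0.00 over all measured genes. The C1q result depends on where the class ends. Cluster 1, which lay between the macrophage and monocyte markers (1430 Arg and 691 Control cells), was left unnamed. Counted as macrophages, it takes C1qa to 2311 against 3832 CPM, a ratio of 0.603, and the number past 1.5-fold to 4, with all 3 C1q chains lower. Each of the 6 other clusterings tried also gave 4. The 7.34% is for the main clustering without cluster 1, so these counts of 4 have no matching share of all genes.

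**Figure D2:**
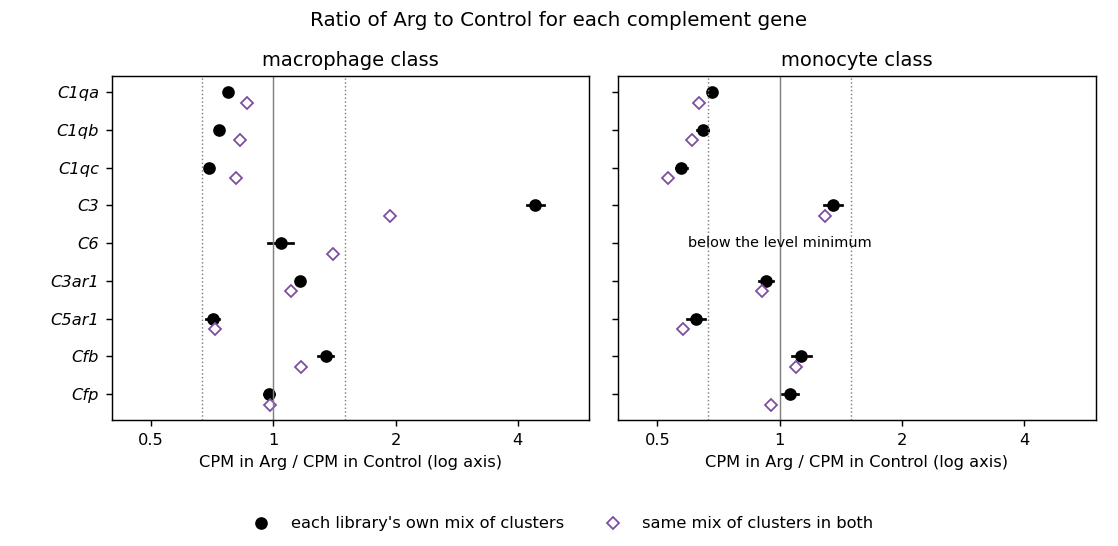
Ratio of Arg to Control CPM (log axis) for each gene in macrophages and monocytes, black with the exact 95% interval at each library's own mix of clusters, open diamonds at 1 common mix, and dotted lines at 1.5-fold. C3 in macrophages lies at 4.41 at its own mix and at 1.93 at the common mix.

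The clusters of the class differed in both size and C1q. Cluster 3, led by Ch25h and the chemokine receptor gene Cx3cr1, made up 40.8% of Control but 10.7% of Arg macrophages. Cluster 11, led by Nos2 (inducible nitric oxide synthase) and the adhesion molecule gene Vcam1, made up 2.57% of Control and 28.0% of Arg macrophages. Cluster 7, led by the metalloprotease genes Mmp12 and Mmp13, made up 13.8% and 32.7%. The matching shares were 23.6% and 18.6% for cluster 6 (Lyve1, Cd163) and 19.2% and 9.98% for the cycling cluster 10 (Birc5, Cdca3). C1qa was level between the libraries in cluster 6, with 4747 CPM in Arg and 4601 CPM in Control. It was lower in Arg in cluster 3 (4124 and 4549 CPM), in cluster 10 (3132 and 4061 CPM), in cluster 11 (3740 and 4987 CPM) and in cluster 7 (1862 and 2596 CPM), where both libraries had their lowest macrophage level. With the clusters weighted alike in both libraries, the C1qa ratio was 0.86. The chains stayed lower in Arg under all 13 alternatives tried, with log2 ratios of C1qa from -0.92 to -0.22.

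**Figure D3:**
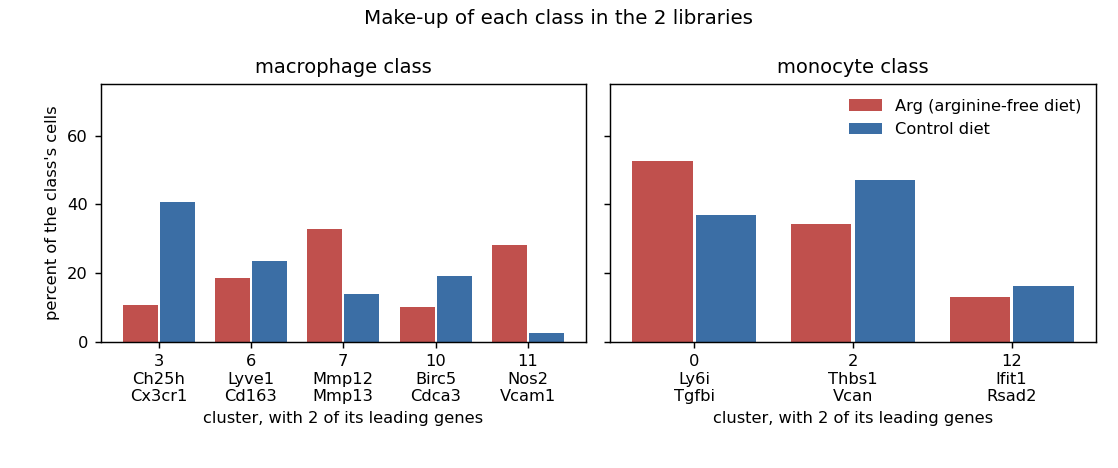
Percent of each class's cells in each of its clusters, Arg in red and Control in blue. Clusters 7 and 11 held more of the Arg macrophages and cluster 3 more of the Control macrophages.

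Of the 9 genes, C3 differed most in macrophages. Arg macrophages held 178 CPM (173 to 183) and Control macrophages 40.4 CPM (38.8 to 42.0), a 4.41-fold difference (4.21 to 4.63). After thinning every cell to 2000 UMIs, 21.9% of Arg and 7.58% of Control macrophages held a C3 UMI. The unthinned shares were 47.0% in Arg and 25.7% in Control, and T cells thinned alike had 1.66% and 0.488%. C3 was higher in Arg in each of the 5 macrophage clusters. In the Lyve1/Cd163 cluster 6 it stood at 135 against 30.5 CPM, which is 4.42-fold (3.83 to 5.11). In the cycling cluster 10 it was 98.4 against 32.4 CPM, in cluster 3 it was 91.0 against 43.1 CPM, and in cluster 7 it was 46.5 against 23.3 CPM. The Nos2/Vcam1 cluster 11 had the highest C3 of the class in both libraries, 409 against 291 CPM, and the smallest ratio, 1.40. Weighting the clusters alike gave 140 against 72.2 CPM, and leaving out cluster 11 gave 81.3 against 35.1 CPM (2.31-fold). The class ratio thus takes in both the larger cluster 11 and higher levels within clusters. Under all 13 alternatives the log2 ratio stayed above 0, from 0.90 to 2.11.

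**Figure D4:**
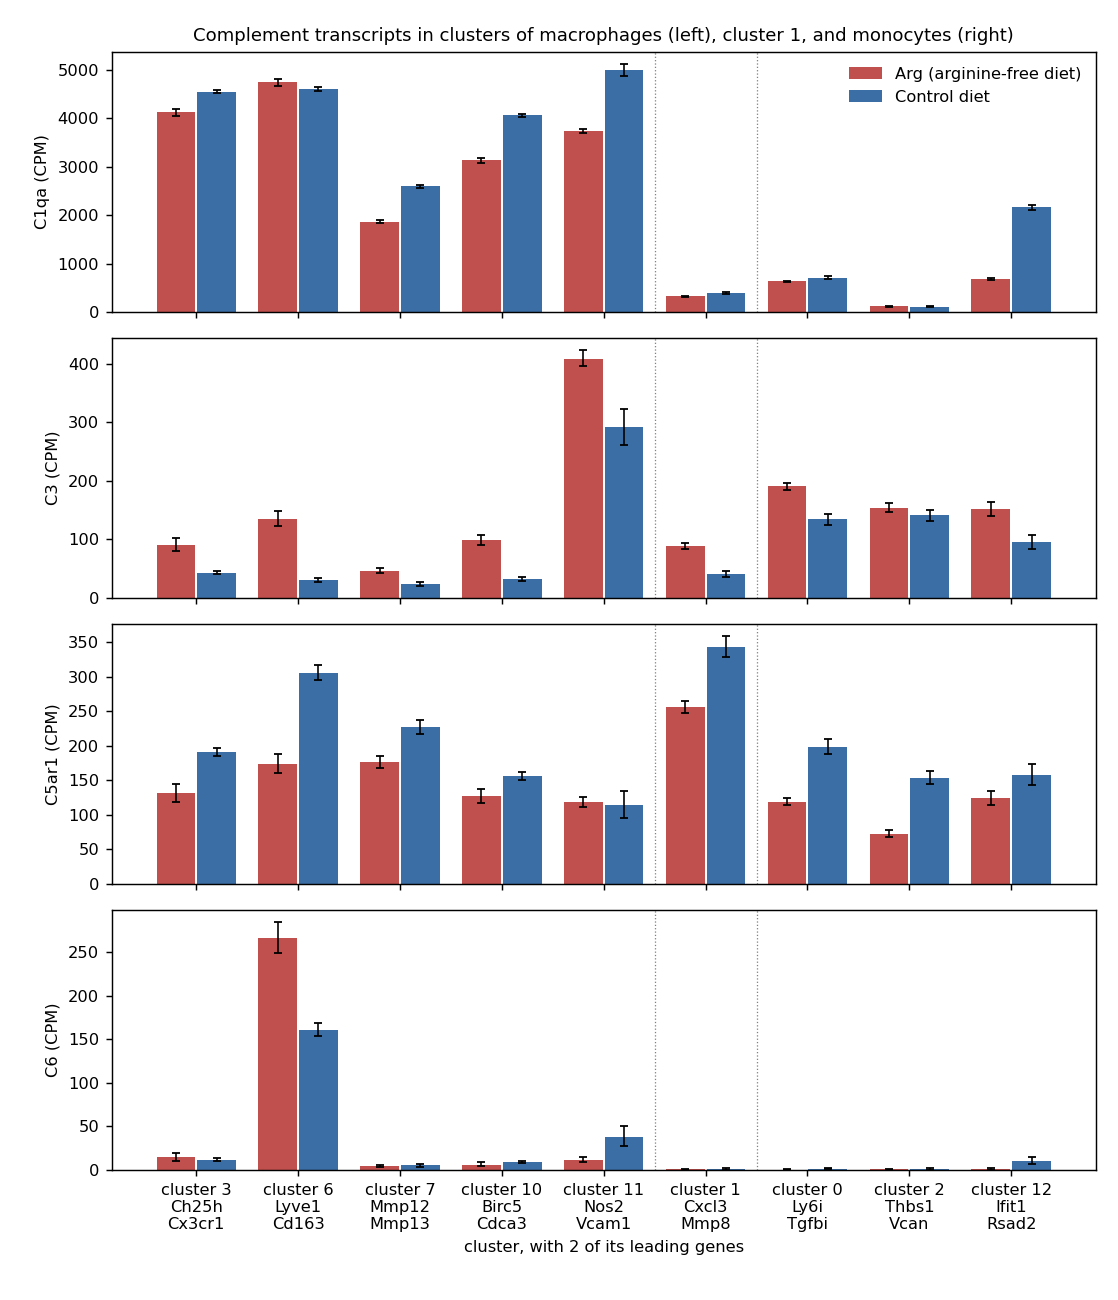
CPM of C1qa, C3, C5ar1 and C6 in the 5 macrophage clusters, in cluster 1 and in the 3 monocyte clusters, Arg in red and Control in blue, with exact Poisson 95% intervals. C3 is higher in Arg in every cluster shown, C5ar1 is lower in every one but cluster 11, and C6 stands out in cluster 6.

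C3 was also present in monocytes, at 176 CPM in Arg and 130 CPM in Control, a ratio of 1.36. It was higher in Arg in all 3 monocyte clusters, with 190 against 134 CPM in cluster 0 (led by Ly6i and Tgfbi), 154 against 141 CPM in cluster 2 (Thbs1, Vcan), and 152 against 94.9 CPM in cluster 12, which was led by the interferon-induced genes Ifit1 and Rsad2. Cluster 1 had 89.3 against 41.0 CPM. The log2 ratio of the monocyte class stayed above 0 in all 12 alternatives, from 0.23 to 0.62. T cells and NK cells differed in the same direction at a far lower level, with 9.18 against 2.45 CPM and 6.59 against 2.26 CPM. C3 therefore differed in T cells as well, and the part of free RNA in the differences at low levels was not tested.

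Factor B was found in the same classes. Cfb stood at 135 CPM in Arg and 101 CPM in Control macrophages and at 146 and 129 CPM in monocytes. In the Nos2/Vcam1 cluster 11 it was at its highest among macrophage clusters in both libraries, 227 and 213 CPM, against 56.5 and 45.5 CPM in cluster 7. It was higher in Arg in each of the 5 macrophage clusters, by ratios from 1.07 in cluster 11 to 1.35 in cluster 3, and in cluster 11 the counting interval of 0.936 to 1.22 held 1. Weighting the clusters alike in both libraries gave 131 and 112 CPM. Without cluster 11 the pooled class had 96.9 and 98.4 CPM, with 783 Arg and 598 Control cells of it in cluster 7, where Cfb was lowest. C3 and Cfb were found together in 8.83% of thinned Arg macrophages and 2.36% of Control macrophages, while the product of their separate shares is 4.91% and 1.44%. Macrophages from several clusters were pooled for these shares. Properdin differed little in macrophages, monocytes and cDC2. Cfp stood at 270 and 277 CPM in macrophages, 203 and 191 CPM in monocytes and 264 and 291 CPM in cDC2. In cDC2 Cfp thus lay far above the 11.7 and 10.1 CPM of T cells. Type 1 conventional dendritic cells (cDC1) held 65.9 and 62.6 CPM and plasmacytoid dendritic cells 71.5 and 70.4 CPM.

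C6 came largely from 1 cluster. The Lyve1/Cd163 cluster 6 supplied 74.2% of all Arg and 72.5% of all Control C6 UMIs. It held 18.6% and 23.6% of the macrophages. Within it C6 stood at 266 CPM (from 897 UMIs) in Arg and 161 CPM (from 1759 UMIs) in Control, a ratio of 1.65 (1.52 to 1.79). In the whole macrophage class, with cluster 6 a smaller part of it in Arg, the levels were 39.1 and 37.6 CPM. The other macrophage clusters had at most 14.6 CPM in Arg, and in Control cluster 11 reached 37.9 CPM from 47 UMIs of 111 cells. Monocytes held 0.624 and 2.98 CPM, against 0.943 and 1.41 CPM in T cells.

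The receptor for C5a was lower in Arg in both macrophages and monocytes. C5ar1 stood at 146 against 205 CPM in macrophages (ratio 0.708) and at 108 against 173 CPM in monocytes (ratio 0.623, 0.593 to 0.656). It was lower in Arg in 4 of the 5 macrophage clusters, by most in cluster 6 with 174 against 306 CPM, and level in cluster 11 with 119 against 114 CPM. It was lower in all 3 monocyte clusters, with 73.0 against 154 CPM in cluster 2, and in cluster 1 with 256 against 344 CPM. Neutrophils (229 and 439 cells), where this receptor guides migration, had the highest level of any class and the opposite direction, 493 against 378 CPM. The direction in macrophages and monocytes held in all alternatives tried, with log2 ratios from -0.54 to -0.14 and from -0.78 to -0.46. The receptor for C3a moved less. C3ar1 stood at 386 and 332 CPM in macrophages and 218 and 236 CPM in monocytes, and was highest in cluster 7 among macrophage clusters (493 and 444 CPM).

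Among monocytes, 3 of the 8 genes measured were past 1.5-fold (C1qb, C1qc and C5ar1, all lower in Arg), where 3.54% of 7477 genes were. The median log2 ratio was -0.33 for these genes and 0.04 for all. C1qb stood at 279 against 431 CPM and C1qc at 301 against 525 CPM. With a stricter cell filter and its own clustering, the direction turned for all 3 chains, to log2 ratios of 0.90 for C1qa, 0.72 for C1qb and 0.54 for C1qc. There a cluster led by Rsad2 and Cmpk2 (285 Arg and 210 Control cells) was left unnamed, so the monocyte class lacked it. Its part in the turn was not tested. The C1q difference was largest in the interferon-induced cluster 12, where C1qa was 680 CPM in Arg and 2158 CPM in Control. In cluster 0 it was 633 and 712 CPM, a ratio of 0.889, and C1qc there had a ratio of 0.764. In cluster 2 C1qa was 114 and 107 CPM and C1qc 64.2 and 80.2 CPM. With the clusters weighted alike in both libraries, the ratios were 0.633 for C1qa, 0.607 for C1qb and 0.532 for C1qc. Without cluster 12 the pooled class had 475 against 403 CPM of C1qa, 261 against 233 CPM of C1qb and 285 CPM of C1qc in both. That pool has 1941 Arg and 604 Control cells of cluster 0 and 1266 and 772 of cluster 2, where C1q was lowest. Then 1 gene was past 1.5-fold, C5ar1, while the 3.54% is for the class with cluster 12. The summed level of 10 macrophage markers in cluster 12 was 6138 CPM in Arg and 5882 CPM in Control, and that of 8 monocyte markers 7692 and 6035 CPM. Their part in the C1q difference was not tested.

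The dendritic cell classes held from 97 to 342 cells per library, and most of their complement counts were low. In cDC1, 5 of 7 measured genes were past 1.5-fold (C3 higher, the C1q chains and C5ar1 lower), against 7.46% of genes. There C1qa was 68.3 and 128 CPM and C3 14.5 (37 UMIs) and 3.35 CPM (10 UMIs). A small subcluster of 17 Arg and 11 Control cells held 84 of the 174 Arg and 249 of the 383 Control C1qa UMIs. The same subcluster held 27 of the 37 Arg and 5 of the 10 Control C3 UMIs. Without it C1qa was 43.0 and 49.9 CPM, and 1 of 4 measured genes was past 1.5-fold, C1qc, which was lower. The 7.46% is for the class with this subcluster. In cDC2, 2 of 7 were past it, against 7.39% of genes, with C3 at 28.1 and 13.6 CPM and Cfb at 21.2 and 9.94 CPM, above T cells in both libraries. In mature dendritic cells 1 of 8 was, Cfb, which was lower, against 15.8% of genes. In plasmacytoid dendritic cells 1 of 7 was, C3, which was higher at 13.9 and 4.10 CPM (27 and 6 UMIs), against 9.24%. C3 differed in the same direction in T cells, at 9.18 and 2.45 CPM.

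In the Rhox5/Lgals7 cells, the nearest stand-in for the tumour, 0 of the 4 genes measured were past 1.5-fold, where 3.52% of 8064 genes were. Their summed C1q was 122 CPM in Arg and 159 CPM in Control, where T cells had 187 and 192 CPM. These cells are deep, with medians of 37939 and 34099 UMIs against 6857 and 7667 in T cells. Per cell they held 4.68 and 5.78 C1q UMIs, against 1.65 and 1.75 per T cell, so the order depends on the scale and the part of free RNA was not tested. C3 was 11.3 and 6.06 CPM, and Cfb 7.82 and 7.11 CPM, against 5.41 and 3.13 CPM in T cells. Fibroblasts were 35 Arg and 87 Control cells, with Col1a1 in 77.1% and 90.8% of them, too few for a comparison. They held C3 at 633 CPM (312 UMIs) in Arg and 273 CPM (472 UMIs) in Control, and Cfb at 290 and 167 CPM, above T cells in both libraries by a wide margin. C1qa in them was 99.5 and 472 CPM, beside summed macrophage markers of 617 and 1017 CPM, and its source was not tested. C6 was listed at 0 in Arg fibroblasts, where 3 UMIs would be 6.09 CPM.

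The other genes of the pathway, a list of 46, were mostly below the level minimum. In macrophages 14 were measured, where 7.34% of all measured genes were past 1.5-fold in either direction. Of the 14, 0 were past it higher in Arg and 2 lower. These were Vsig4, a macrophage receptor for C3 fragments (1.62 and 10.4 CPM), and C1qbp, a mitochondrial protein first known for binding C1q (108 and 172 CPM). Of the 6 other terminal pathway genes, 0 were measured in macrophages or monocytes. Among them, C8a was measured in plasmacytoid dendritic cells, from 11 Arg and 19 Control UMIs. In monocytes 10 genes of the list were measured, 1 was higher and 4 lower, where 3.54% of all measured genes were past 1.5-fold. The higher one was Itgax, a subunit of complement receptor CR4 (58.4 and 29.3 CPM), which was also among the cDC2 markers used to name clusters. Among the lower ones were C4b (16.0 and 31.5 CPM), the collectin Colec12 (104 and 176 CPM) and the C-type lectin receptor Cd93 (62.7 and 99.1 CPM). The integrin subunits of complement receptor CR3 were measured in both classes, with Itgam at 425 and 416 CPM in macrophages. The fibroblasts held the C1 inhibitor gene Serping1 at 1746 and 1053 CPM, the C1 protease gene C1s1 at 398 and 253 CPM and C4b at 304 and 339 CPM.

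Across the 13 named classes of the Control library, the patterns most like those of the complement genes were found by Pearson's r on log CPM among 6677 candidate genes. For C1qa these were Stab1 (r = 0.968), Ms4a7 and F13a1. For C3 they were Nos2 (r = 0.975), Dram1 and Mmp19, and Nos2 and Dram1 were also the closest to Cfb. For C6 they were Cbr2 (r = 0.933), Hbb-bs and Ednrb, and for C5ar1 Slc11a1 (r = 0.98), Fpr2 and Fgd4. For C3ar1 the closest was Msr1 (r = 0.965) and for Cfp Ctss (r = 0.961). In the Arg library r was 0.95 for C1qa with Stab1, 0.790 for C3 with Nos2, and -0.04 for C6 with the haemoglobin gene Hbb-bs. The classes share 1 library and its free RNA.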

How the data were processed

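The deposited values are raw, unscaled UMI counts by gene and barcode, written by the authors with Cell Ranger 7.0.1 per the file headers. The submitters' processing notes instead name Cell Ranger 2.2.2, with GRCm38. No label or header used says if introns were counted. The filter asked for 200 genes, 500 UMIs and no more than 10% of mitochondrial UMIs per barcode, and 884 Arg and 687 Control doublets called by scanpy's Scrublet (expected share 8%) were removed. With scanpy 1.11.5, 2000 variable genes were chosen and their 13 complement genes dropped, leaving 1987. Both libraries were clustered together without batch correction (30 principal components, 20 neighbours, leidenalg 0.10.2 at resolution 1, seed 1).

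Clusters were named from 16 marker sets. A set competed where 3 or more markers were each in 20% of a cluster's cells, and its mean log2 fold over the other clusters, weighted equally, had to reach 0.5. Sets within 0.25 left a cluster unnamed, clusters with 2 strong sets were clustered again, and clusters with Rhox5 and Lgals7 in at least 50% of cells were set aside. These rules were revised several times after the clusters had been seen. A first version, with folds over all other cells, left several macrophage clusters unnamed and called the Rhox5/Lgals7 clusters fibroblasts. Leaving cluster 1 unnamed under the final rule makes the macrophage count 1 rather than 4. The complement genes, pathway list and markers were chosen with earlier results of these data known.

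Counts were summed by class and library and scaled by each class total to CPM. Ratios printed as ratios are of CPM, and log2 ratios are of CPM + 5. A class was compared when each library held 50 or more of its cells. Pathway genes named from outside the 9 were past 1.5-fold or high in a class, and not all genes high in a class are named. The closest patterns were the top 3 per gene, C1qb and C1qc left out, among genes at 50 CPM or more. A gene of the list is not reported here. The intervals are exact Poisson or conditional binomial at 95% and cover counting error only. The scripts were tested on simulated data. TMM factors came from edgeR 4.0.16. The alternatives tried were other cell filters, doublets kept, resolutions 0.5 and 2, complement genes kept in clustering, 1 CPM added, no level minimum, means over cells, TMM and thinning to 1000 UMIs. Added after seeing the data were cluster 1 counted as macrophages, 1 common mix of clusters, the classes without cluster 11 or 12, and cDC1 without a small subcluster.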

Additional observations from a re-analysis of the deposited data

Results flagged for a closer look

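Cfb differed in opposite directions in 2 dendritic cell classes, though few mature dendritic cells held it. Its log2 ratio of Arg over Control was 0.81 in cDC2 (96 Arg and 19 Control UMIs, 21.2 and 9.94 CPM) and -0.72 in mature dendritic cells (13 and 24 UMIs, 7.95 and 16.3 CPM). The difference between the classes was not tested, since each diet has 1 library. T cells held 5.41 and 3.13 CPM.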

How the results depend on the processing

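No paired analysis was possible because each diet has 1 library. Of 528 recomputed log2 ratios, 470 kept their direction and 58 did not. The number of complement genes past 1.5-fold in macrophages, 1 as reported, was 4 with no cell filter, with a stricter filter, with doublets kept, at resolution 0.5, at resolution 2, with complement genes kept in clustering and with cluster 1 counted as macrophages. In monocytes (3) it was 1 at resolution 2, 5 with complement genes kept and 1 without cluster 12. In cDC1 (5) it was 2 with no filter, 2 at resolution 0.5, 3 as means over cells and 1 without a small subcluster. In cDC2 (2) it was 5 with no filter and 5 with complement genes kept, and resolution 0.5 gave no such class. In mature dendritic cells (1) it was 5 with no filter, 2 with doublets kept, 2 at resolution 2, 4 with complement genes kept, 2 with 1 CPM added and 2 as means over cells. In plasmacytoid dendritic cells (1) it was 3 with the stricter filter, 3 with doublets kept, 2 with 1 CPM added and 2 as means over cells. In Rhox5/Lgals7 cells (0) it was 4 with doublets kept, and 1 each at resolution 0.5, with 1 CPM added and with TMM. The shares of all genes past 1.5-fold printed above are for the main setting, so the counts under alternatives have no matching share. Of genes past 1.5-fold as reported, log2 ratios turned to 0.19 for C1qa in cDC1 with no filter, to 0.72 (C1qb) and 0.54 (C1qc) in monocytes with the stricter filter (where C1qa, not past it, turned to 0.90), and to 0.16 for C1qb in monocytes without cluster 12. Thinned to 1000 UMIs, the Arg over Control ratio of the share of macrophages with a UMI was 0.816 for C1qa, 0.769 for C1qb and 0.778 for C1qc, against 0.847, 0.817 and 0.838 at 2000. The cause was not tested. A count of 3 UMIs is 0.664 to 2.05 CPM in the dendritic classes and 6.09 CPM in the 35 Arg fibroblasts, which limits low levels there.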
